A study of Saccharomyces cerevisiae with 18 samples.

Results

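The 60 genes described here encode the cytosolic large ribosomal subunit proteins of Saccharomyces cerevisiae from RPL1A to RPL34B. They were taken by name from a table of 6205 open reading frames (ORFs), and all 60 were present with a value on every array. The name of each was checked against a RefSeq gene table by its systematic ORF name. The 60 comprise 26 pairs of A and B paralogues, which make 52 genes, and 8 genes present as a single copy.

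Deletion strains of 3 genotypes were each set against 1 wild type strain. The dot4 null (strain UCC6390) lacks DOT4, now named UBP10 (YNL186W), the ubp8 null (UCC6392) lacks UBP8 (YMR223W), and the double null (UCC6393) lacks both. The wild type was UCC6389, and cultures were in YEPD, which is a rich medium with glucose. The products of both genes are deubiquitinating enzymes that act on histone H2B, Ubp8 as part of the coactivator complex SAGA. On each of 18 arrays, RNA of null cells shared the slide with wild type RNA, both extracted as total RNA. Every genotype has 3 numbered sets, each of 2 arrays: one has the null RNA in channel 1 (a channel 1 array below) and the other has it in channel 2 (a channel 2 array). For a single array, the channel 2 array of double null set 3, the label gives UCC6392, the strain number that belongs to the ubp8 null. The labels do not state that sets are separate cultures. The p-values therefore cover only the spread among these sets, and that spread may be technical.

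The large subunit holds the peptidyl transferase centre, where peptide bonds form on ribosomal RNA, and the tunnel through which the new protein leaves. Its proteins stabilise the folded RNA, carry the stalks that meet elongation factors, form bridges to the small subunit and surround the tunnel exit. In budding yeast their genes are among the most heavily transcribed in rich medium, and many exist as 2 copies that encode identical or nearly identical proteins. The sequences of such copies are so close that a spot for one may also capture RNA of the other. The spots that gave each value were not analysed here.

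Values below are log2 ratios, null over wild type, relative to the array median, averaged over the 2 arrays of a set and then over 3 sets. Errors are the standard error (SE) of the limma fit with n = 3 sets. All 3 genotypes were fitted together, so the SE of a gene is pooled and is the same in each genotype. It does not give the spread of that genotype's own sets. Over the 60 genes, the median SD between sets was 0.0391 in dot4 null cells, 0.0520 in ubp8 null cells and 0.1005 in double null cells. A gene was called when its adjusted p over all 6205 ORFs was under 0.05. The 2 deleted genes fixed the direction, and the order in which the titles name the strains would turn every sign. UBP10 averaged -5.06 ± 0.08 in dot4 null cells and -4.70 ± 0.08 in double null cells, and UBP8 averaged -2.94 ± 0.09 in the strains without it. The arrays' medians as deposited lay between -0.18 and 0.30, and arrays of one genotype and orientation correlated across ORFs with r from 0.54 to 0.95. The number of arrays limits the precision.

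Most large subunit protein transcripts were lower in both strains without DOT4, by a modest amount, and few were much lower. In dot4 null cells 58 of the 60 genes fell (limma, adjusted p under 0.05), where 32.1% of all ORFs were called lower. Double null cells also had 58 of 60 lower, where 35.2% of all ORFs were called lower. Only 21 of 60 fell in ubp8 null cells, a share of 35% that lies near the 28.7% of all ORFs called lower there. No member was called higher in any of the 3 strains, against 29.9% of all ORFs in dot4 null cells, 30% in ubp8 null cells and 35.3% in double null cells. The median of the members was -0.35 in dot4 null cells, equal to 21.5% less RNA relative to the array median, against -0.01 over all ORFs. It was -0.43 in double null cells, or 25.7% less, and -0.08 in ubp8 null cells, or 5.45% less, against 0.00 over all ORFs in each.

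**Figure D1:**
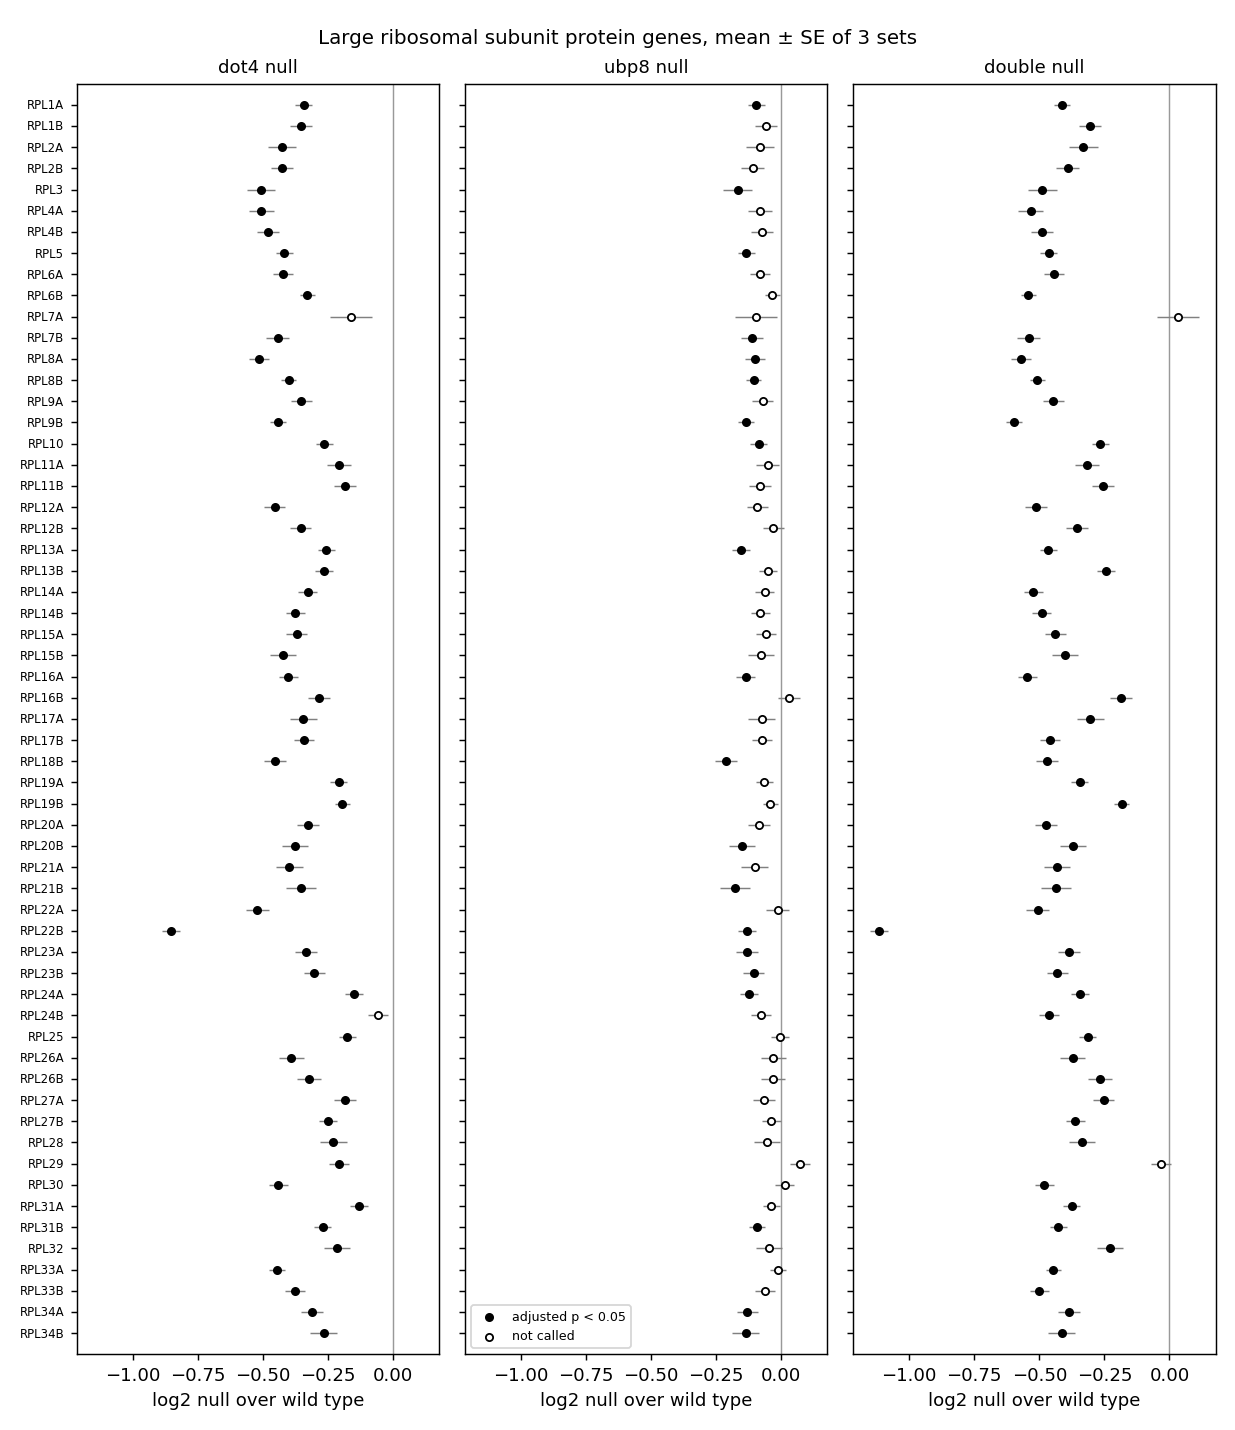
Log2 ratio of null over wild type (x axis) for 59 of the 60 large subunit protein genes (y axis) in the dot4 null, the ubp8 null and the double null. Points are means of 3 sets, lines the SE of the limma fit pooled over the 3 genotypes, and filled points were called at an adjusted p under 0.05. In the dot4 null the means run between -0.85 and -0.06 and in the double null between -1.12 and 0.03, with RPL22B lowest in both, and in the ubp8 null they run between -0.21 and 0.07.

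The set medians of the members were -0.37, -0.33 and -0.35 in dot4 null cells (SD 0.018, n = 3 sets). They were -0.33, -0.41 and -0.51 in double null cells (SD 0.088, n = 3 sets) and -0.11, -0.05 and -0.09 in ubp8 null cells (SD 0.030, n = 3 sets). The spread between sets was thus widest in double null cells, where set 3 had the lowest median of the members in each orientation. The channel 2 array of that set has the discordant strain number. UBP10 lay between -5.58 and -3.88 on the double null arrays, that array included, and between -0.27 and -0.05 on the ubp8 null arrays. Without that array the double null still had 58 members called lower, with a median of -0.49. Set 3 is then its channel 1 array alone, on which the members' median was -0.73, against -0.28 on the channel 2 array left out, so this median is not balanced for orientation. The ubp8 null count depended more on which sets were used, at 8 without set 1 and 12 without set 3. It was also 8 without the array with the discordant strain number, through the shared estimate of spread.

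The decreases were shallow. RPL22B was the only one of the 60 genes that fell at least 1.5-fold in dot4 null cells, where 0.951% of all ORFs did so. RPL22B and RPL9B passed that size in double null cells, 2 of 60 members, against 1.95% of all ORFs. Among the 21 members called lower in ubp8 null cells were RPL1A, RPL3, RPL5, RPL7B, RPL8A, RPL8B, RPL9B, RPL10, RPL13A, RPL16A, RPL18B, RPL20B, RPL21B, RPL22B, RPL23A, RPL23B, RPL24A, RPL31B, RPL34A and RPL34B. Their share of 35% lay near the 28.7% of all ORFs called lower there, and no member was called lower in each orientation separately. RPL5 and RPL8A were called lower on channel 1 arrays and higher on channel 2 arrays.

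RPL22B (YFL034C-A), one of the copies for a protein of the subunit's outer surface, was the lowest member. In double null cells it read -0.96, -1.13 and -1.16 on channel 1 arrays and -1.17, -1.16 and -1.13 on channel 2 arrays, in the order of sets 1 to 3. Dot4 null cells gave -0.95, -0.82 and -0.83 on channel 1 arrays and -0.97, -0.78 and -0.75 on channel 2 arrays. The 12 arrays therefore all lay well below 0, and those of the double null overlapped those of the dot4 null only through the array reading -0.96, the highest of its group. The mean was -1.12 ± 0.03 in double null cells, equal to 53.9% less RNA (adjusted p = 1.25e-09), and -0.85 ± 0.03 in dot4 null cells, or 44.6% less (adjusted p = 1.54e-08). The 6 ubp8 null arrays lay between -0.21 and -0.07, with a mean of -0.13 ± 0.03 (adjusted p = 0.0078).

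Genes for proteins around the peptidyl transferase centre, RPL2A, RPL2B, RPL3 and RPL10, fell in both strains without DOT4. The shares of all ORFs called lower, for this group and those below, were 32.1% (dot4 null), 35.2% (double null) and 28.7% (ubp8 null). RPL3 (YOR063W), a single-copy gene whose protein reaches toward the centre, read -0.51 ± 0.05 in dot4 null cells and -0.49 ± 0.05 in double null cells. Its 6 dot4 null arrays ranged from -0.71 to -0.28, with all 6 below 0, and set 2 gave the 2 highest values. RPL10 (YLR075W), whose protein joins the subunit late in its assembly, was steadier in double null cells, at -0.24, -0.26 and -0.34 on channel 1 arrays and -0.24, -0.27 and -0.24 on channel 2 arrays. Its means were -0.26 ± 0.03 in dot4 null cells and -0.26 ± 0.03 in double null cells. RPL2A and RPL2B both averaged -0.43 in dot4 null cells, and -0.33 ± 0.05 and -0.39 ± 0.04 in double null cells. In dot4 null cells RPL2A read -0.69 on channel 1 arrays and -0.16 on channel 2 arrays, and RPL2B -0.80 and -0.06. Neither was called on channel 2 arrays there. The 4 genes had medians of -0.62 on channel 1 arrays and -0.17 on channel 2 arrays in dot4 null cells. In double null cells these were -0.69 and -0.13. In ubp8 null cells RPL3 (-0.17 ± 0.05) and RPL10 (-0.09 ± 0.03) were called, though each lost its call in 2 of the 3 fits that left out a ubp8 null set, at -0.16 and -0.12 for RPL3 and at -0.06 and -0.09 for RPL10.

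The 7 genes for stalk proteins and the proteins that bind 5S ribosomal RNA, RPL1A, RPL1B, RPL5, RPL11A, RPL11B, RPL12A and RPL12B, all fell in dot4 null cells (median -0.35) and in double null cells (median -0.35). RPL5 (YPL131W), a single-copy gene whose protein binds 5S RNA together with that of RPL11, averaged -0.42 ± 0.03 in dot4 null cells and -0.46 ± 0.03 in double null cells. RPL12A was lowest of the 7 in both, at -0.46 and -0.51, and RPL11B highest, at -0.18 and -0.26. The 7 had medians of -0.70 on channel 1 arrays and 0.01 on channel 2 arrays in dot4 null cells. In double null cells these were -0.66 and -0.03. In dot4 null cells RPL12A read -0.92 on channel 1 arrays and 0.01 on channel 2 arrays, and RPL11B -0.63 and 0.26. RPL1A and RPL5 were called in ubp8 null cells, and RPL5 stood at -0.13 ± 0.03 (adjusted p = 0.00516). That RPL5 mean lay between -0.45 on channel 1 arrays, called lower, and 0.18 on channel 2 arrays, called higher. RPL1A likewise read -0.29 on channel 1 arrays and 0.09 on channel 2 arrays in ubp8 null cells.

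Genes for proteins of the exit tunnel and its rim, 11 in all, fell in dot4 null cells with a median of -0.32 and in double null cells with a median of -0.37. RPL4A, whose protein lines the tunnel, was lowest of them in both, at -0.51 ± 0.05 in dot4 null cells and -0.53 ± 0.05 in double null cells. RPL25 (YOL127W), a single-copy gene whose protein lies at the tunnel exit and meets the signal recognition particle, averaged -0.18 ± 0.03 in dot4 null cells and -0.31 ± 0.03 in double null cells. These RPL25 means hide values of opposite sign in the opposite orientations, described further on. RPL31A averaged -0.13 ± 0.03 in dot4 null cells and was not called there without set 3, at -0.09, while in double null cells it averaged -0.38 ± 0.03. In ubp8 null cells RPL31B was the only gene of the 11 that was called. The 11 had medians of -0.64 on channel 1 arrays and -0.04 on channel 2 arrays in dot4 null cells. In double null cells these were -0.51 and -0.19.

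Of the 5 genes for proteins that form bridges to the small subunit, all 5 fell in double null cells (median -0.43) and 4 in dot4 null cells (median -0.30). RPL30 (YGL030W), a single-copy gene whose protein also binds its own transcript and inhibits its splicing, averaged -0.44 ± 0.04 in dot4 null cells and -0.48 ± 0.04 in double null cells. Its mean was 0.01 ± 0.04 in ubp8 null cells (adjusted p = 0.762). RPL24B averaged -0.06 ± 0.04 in dot4 null cells (limma, adjusted p = 0.221) and -0.46 ± 0.04 in double null cells (adjusted p = 1.44e-06). Its copy RPL24A averaged -0.15 ± 0.03 and -0.34 ± 0.03 in the same strains. In dot4 null cells RPL24B read -0.69 on channel 1 arrays and 0.58 on channel 2 arrays. In the same order RPL24A read -0.60 and 0.30, and RPL30 -0.93 and 0.05. The 5 had medians of -0.69 on channel 1 arrays and 0.10 on channel 2 arrays in dot4 null cells. In double null cells these were -0.59 and -0.18.

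Other proteins of the fold and surface are encoded by 33 genes. Of these, 32 fell in dot4 null cells, 31 in double null cells and 13 in ubp8 null cells. The 33 had medians of -0.63 on channel 1 arrays and -0.11 on channel 2 arrays in dot4 null cells. In double null cells these were -0.66 and -0.23. Besides RPL22B, RPL22A (-0.52 ± 0.04) and RPL8A (-0.52 ± 0.04) were lowest in dot4 null cells. The corresponding genes of double null cells were RPL9B (-0.60 ± 0.03), RPL8A (-0.57 ± 0.04), RPL16A (-0.55 ± 0.04) and RPL6B (-0.54 ± 0.03). RPL9B read -0.69, -0.83 and -0.79 on channel 1 arrays and -0.35, -0.41 and -0.52 on channel 2 arrays in double null cells, so all 6 arrays were below 0 while the orientations did not overlap. Among the lowest of all members in ubp8 null cells were RPL18B (-0.21 ± 0.04), RPL21B (-0.18 ± 0.06), RPL3 and RPL13A (-0.16 ± 0.03). RPL21B was not called without ubp8 null set 1 or set 2, at -0.17 and -0.15. In ubp8 null cells RPL3 read -0.40 on channel 1 arrays and 0.07 on channel 2 arrays, and RPL13A read -0.38 and 0.07.

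Few members departed from the common decrease. RPL7A (YGL076C) was called in none of the strains, with a mean of -0.16 ± 0.08 in dot4 null cells (adjusted p = 0.0995) and 0.03 ± 0.08 in double null cells (adjusted p = 0.721). Its dot4 null values were -0.59, -0.22 and -0.36 on channel 1 arrays and -0.34, 0.00 and 0.52 on channel 2 arrays, and its SD between sets of 0.277 was the largest among the 60 in that strain. Without dot4 null set 3, which held the array at 0.52, it was called lower at -0.28. RPL29 (YFR032C-A), a single-copy gene, averaged -0.03 ± 0.04 in double null cells (adjusted p = 0.459), -0.21 ± 0.04 in dot4 null cells (adjusted p = 0.000839) and 0.07 ± 0.04 in ubp8 null cells (adjusted p = 0.122). The highest called members of the double null were RPL19B (-0.18 ± 0.03), RPL16B (-0.19 ± 0.04) and RPL32 (-0.23 ± 0.05).

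All 8 single-copy genes fell in dot4 null cells, where 32.1% of all ORFs were called lower. Their median was -0.25, against -0.35 for the 52 genes in pairs. Of the 8, 7 fell in double null cells with a median of -0.32, against 51 of 52 and -0.43, where 35.2% of all ORFs were called lower. Only RPL3 and RPL10 of the 8 were called lower in each orientation separately in dot4 null cells. On channel 2 arrays RPL25 (0.49) and RPL32 (0.21) were called higher there, and RPL28 (0.10) and RPL30 (0.05) averaged above 0. RPL28 (YGL103W), whose protein is the target altered in cycloheximide-resistant yeast, averaged -0.23 ± 0.05 in dot4 null cells and -0.34 ± 0.05 in double null cells. RPL32 (YBL092W) averaged -0.22 ± 0.05 in dot4 null cells and -0.23 ± 0.05 in double null cells. The difference between single-copy and paired genes was not tested.

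The members' values depended on the orientation of the arrays. On channel 1 arrays, the members' median was -0.65 in dot4 null cells, -0.31 in ubp8 null cells and -0.64 in double null cells. On channel 2 arrays, it was -0.06, 0.12 and -0.18 in the same strains. From channel 1 arrays alone, 60 members were called lower in dot4 null cells, 52 in ubp8 null cells and 59 in double null cells, against 35%, 32% and 35% of all ORFs. On channel 2 arrays alone, 20, 1 and 38 members were called lower, against 27.7%, 18% and 28.8% of all ORFs. On channel 2 arrays alone 24 members were called higher in ubp8 null cells, where 18.9% of all ORFs were, and 11 in dot4 null cells and 2 in double null cells, against 28.6% and 29.8% of all ORFs. The ubp8 null thus gave opposite directions for most members in the opposite orientations, and the mean of a set lay between them.

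**Figure D2:**
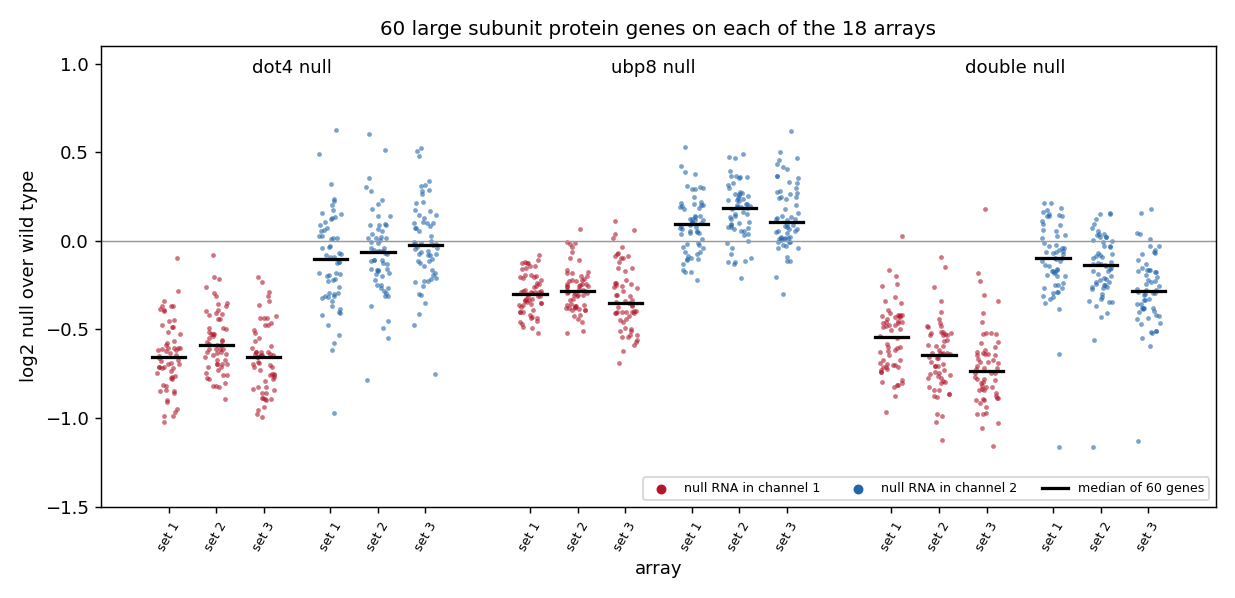
Log2 ratio of null over wild type (y axis) of the 60 large subunit protein genes on each of the 18 arrays (x axis), with red points for the null RNA in channel 1, blue points for the null RNA in channel 2, and black bars for the median of the 60 genes. The array medians lie between -0.73 and -0.28 in every channel 1 array and between -0.28 and 0.19 in every channel 2 array.

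Within a set, the channel 2 value was subtracted from the channel 1 value, both as null over wild type. This difference would be 0 where both arrays gave the same ratio, and what moved it from 0 was not tested. Its median over the members was -0.57 in dot4 null cells, -0.44 in ubp8 null cells and -0.45 in double null cells, against -0.02, 0.00 and 0.00 over all ORFs. It was called below 0 for 52, 45 and 50 of the 60 members, where 32.5%, 15.9% and 15.2% of all ORFs were called below 0. RPL25 had the largest such difference in all 3 strains, at -1.34 in dot4 null cells, -1.10 in ubp8 null cells and -0.97 in double null cells. On the dot4 null arrays RPL25 read -0.97, -0.67 and -0.89 on channel 1 arrays and 0.49, 0.51 and 0.48 on channel 2 arrays. The orientations did not overlap, and a set mean of RPL25 was a small remainder of large opposite values.

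RPL14A, RPL6B and RPL30 were also among the 5 members with the largest orientation differences in both single nulls, joined by RPL24B in dot4 null cells and RPL9A in ubp8 null cells. The 5 of double null cells were RPL25, RPL9A, RPL20A, RPL30 and RPL2B. RPL22B stood at the other end, with differences of -0.03 in dot4 null cells, 0.06 in ubp8 null cells and 0.07 in double null cells, none of them called. In dot4 null cells 11 members were called lower on channel 1 arrays and higher on channel 2 arrays, namely RPL6B, RPL11B, RPL13B, RPL14A, RPL17B, RPL19A, RPL24A, RPL24B, RPL25, RPL27B and RPL32, against 5.93% of all ORFs. In double null cells RPL25 and RPL32 did so, against 1.21% of all ORFs, and in ubp8 null cells 23 members did, against 2.3%.

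**Figure D3:**
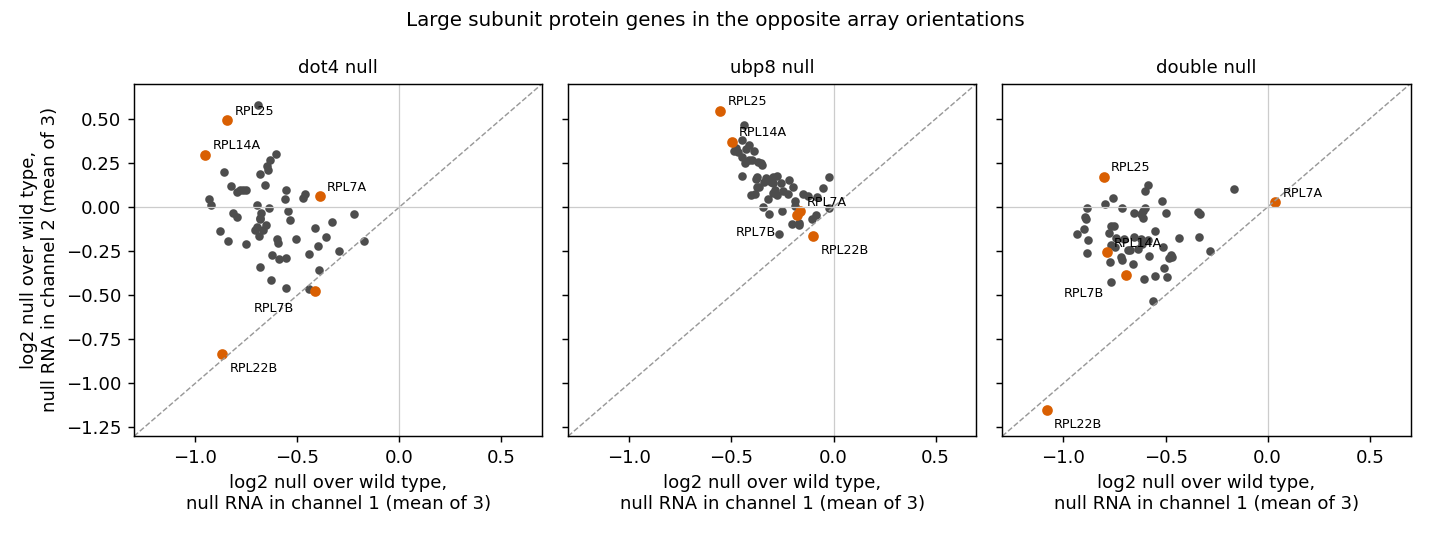
Mean log2 ratio of null over wild type of each large subunit protein gene with the null RNA in channel 1 (x axis) and in channel 2 (y axis), 3 arrays each, in the dot4 null, the ubp8 null and the double null. The dashed line marks equal values, and 5 genes are named in orange. Most genes lie above the line, RPL25 farthest at -1.34, -1.10 and -0.97 for channel 1 minus channel 2, and RPL22B lies on it at the lower left in the strains without DOT4.

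In dot4 null cells 20 members were called lower in each orientation separately, against 13.3% of all ORFs. They included RPL3, RPL4B, RPL7B, RPL8A, RPL8B, RPL9B, RPL10, RPL15B, RPL17A, RPL18B, RPL20B, RPL21B, RPL22A, RPL22B, RPL26A, RPL27A, RPL31B, RPL33A and RPL34A. For RPL18B in dot4 null cells the values were -0.37, -0.44 and -0.52 on channel 1 arrays and -0.53, -0.45 and -0.41 on channel 2 arrays, so the orientations overlapped. In double null cells 38 members were called lower in each orientation, against 22.8% of all ORFs. In ubp8 null cells no member was, at an adjusted p under 0.05 in each orientation by limma, and RPL22B was the only member called lower on channel 2 arrays. On all 6 arrays of the genotype, 32 members lay below 0 in dot4 null cells, 38 in double null cells and 4 in ubp8 null cells, against 21%, 27.9% and 20% of all ORFs.

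The genotypes were then compared with each other. They share the wild type strain, so their values are given side by side. The double null minus the ubp8 null, the effect of losing DOT4 where UBP8 is absent, was called lower for 57 members, where 21% of all ORFs were, with a median of -0.32. RPL22B had the largest difference, -0.99 ± 0.05, and RPL7A, RPL29 and RPL32 were not called. The median was -0.32 on channel 1 arrays, with 53 members called lower against 15.5% of all ORFs. It was -0.32 on channel 2 arrays too, with 41 members against 14.5%.

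The dot4 null minus the ubp8 null was called lower for 48 members, where 30.2% of all ORFs were, with a median of -0.27. RPL22B (-0.72 ± 0.05), RPL22A (-0.51 ± 0.06), RPL30 (-0.46 ± 0.05) and RPL33A (-0.43 ± 0.04) were among them. On channel 1 arrays alone 50 members were called lower, against 31.1% of all ORFs. On channel 2 arrays alone 30 were, against 20.5%, and RPL24A and RPL24B were called higher. Without centring of the arrays the 48 became 7, and the 57 of the double null minus the ubp8 null became 36.

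The double null minus the dot4 null, the effect of losing UBP8 where DOT4 is absent, was called lower for 13 members and higher for RPL29. This share of 21.7% is below the 29.2% of all ORFs called lower, and the median was -0.06. RPL24B (-0.40 ± 0.05), RPL22B (-0.27 ± 0.05), RPL31A (-0.24 ± 0.05), RPL6B (-0.21 ± 0.04) and RPL13A (-0.21 ± 0.05) had the largest decreases. RPL22B held in each orientation, at -0.21 on channel 1 arrays and -0.32 on channel 2 arrays, and RPL31A did at -0.25 and -0.24. RPL24B was -0.05 on channel 1 arrays, which was not called, and -0.76 on channel 2 arrays. Also not called on channel 1 arrays were RPL6B (-0.07, against -0.35 on channel 2 arrays) and RPL13A (-0.12, against -0.29). RPL29 was higher by 0.17 ± 0.05, though not called without dot4 null set 1 or without double null set 1 or set 2, and the count of lower members was 22 without double null set 1.

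The departure of double null cells from the summed effects of the single nulls was called lower for 3 members, RPL24B (-0.33 ± 0.07), RPL31A (-0.21 ± 0.06) and RPL6B (-0.18 ± 0.05), where 8.41% of all ORFs were. Its median over the members was 0.03 and the median SE was 0.071. In this contrast an effect of orientation enters once in double null cells and once in each single null, and the opposite orientations gave opposite answers. On channel 1 arrays no member was called lower and 39 were called higher (15.9% of all ORFs), with a median of 0.30. On channel 2 arrays, 26 were called lower (16.6% of all ORFs) and none higher, with a median of -0.22. RPL24B was 0.42 on channel 1 arrays and -1.07 on channel 2 arrays, RPL6B was 0.38 and -0.73, and RPL31A was -0.09 and -0.32. The count of 3 became 1 without dot4 null set 2, without ubp8 null set 1 or without ubp8 null set 2.

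Paralogues were compared as A minus B on the same arrays, so that centring cancels. Each of the 26 pairs was tested by an exact two-sided sign-flip permutation test over the 9 set means, whose smallest p is 0.00391, with adjustment over the 26 pairs. In 6 pairs the copies differed at an adjusted p under 0.05, with A higher in 4 and lower in 2. The 3 sets of a genotype alone cannot give a p below 0.25, so values per genotype carry no test.

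The RPL22 pair differed most. RPL22A minus RPL22B averaged 0.35 ± 0.22 (SD, n = 9 sets) and was above 0 on 18 of 18 arrays (exact permutation p = 0.00391, adjusted p = 0.0254). It was 0.61 ± 0.08 in double null cells, 0.33 ± 0.10 in dot4 null cells and 0.12 ± 0.04 in ubp8 null cells (SD, n = 3 sets). RPL22A itself fell to -0.51 ± 0.04 in double null cells and -0.52 ± 0.04 in dot4 null cells, while it read -0.01 ± 0.04 in ubp8 null cells (adjusted p = 0.802).

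In the RPL7 pair, RPL7A minus RPL7B averaged 0.29 ± 0.29 (SD, n = 9 sets), above 0 in 8 of 9 sets (exact permutation, adjusted p = 0.0339). It was 0.57 ± 0.24 in double null cells, 0.28 ± 0.21 in dot4 null cells and 0.02 ± 0.02 in ubp8 null cells (SD, n = 3 sets). RPL7B fell to -0.54 ± 0.04 in double null cells and -0.44 ± 0.04 in dot4 null cells, whereas RPL7A was not called. On channel 1 arrays alone the difference was 0.26, with an adjusted p of 0.115 by the exact permutation test.

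RPL16 ran the other way, with the A copy lower. RPL16A minus RPL16B averaged -0.22 ± 0.14 (SD, n = 9 sets), below 0 in 8 of 9 sets and on 16 of 18 arrays (exact permutation, adjusted p = 0.0339). It was -0.36 ± 0.03 in double null cells, -0.12 ± 0.13 in dot4 null cells and -0.17 ± 0.11 in ubp8 null cells (SD, n = 3 sets). RPL12A minus RPL12B averaged -0.11 ± 0.07 (SD, n = 9 sets) and was below 0 in all 9 sets (exact permutation, adjusted p = 0.0254).

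RPL9A minus RPL9B and RPL31A minus RPL31B were above 0 in all 9 sets, at 0.10 ± 0.05 and 0.08 ± 0.07 (SD, n = 9 sets; exact permutation, adjusted p = 0.0254 for each). The RPL9 difference changed sign with the orientation, at -0.19 on channel 1 arrays and 0.40 on channel 2 arrays. It was the only one of the 6 that did so. RPL13A minus RPL13B averaged -0.11 ± 0.10 (SD, n = 9 sets; exact permutation, adjusted p = 0.0725), and the RPL24, RPL6 and RPL20 pairs averaged -0.01, -0.01 and 0.00. These 3 pairs hid opposite differences by orientation, largest for RPL20 at -0.34 on channel 1 arrays and 0.35 on channel 2 arrays. Their means by genotype had opposite signs too, without a test. In double null cells they were 0.12 for RPL24, 0.10 for RPL6 and -0.11 for RPL20, in dot4 null cells -0.09, -0.09 and 0.05, and in ubp8 null cells -0.05, -0.05 and 0.06. In the other 16 pairs the mean difference lay between -0.07 and 0.05.

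**Figure D4:**
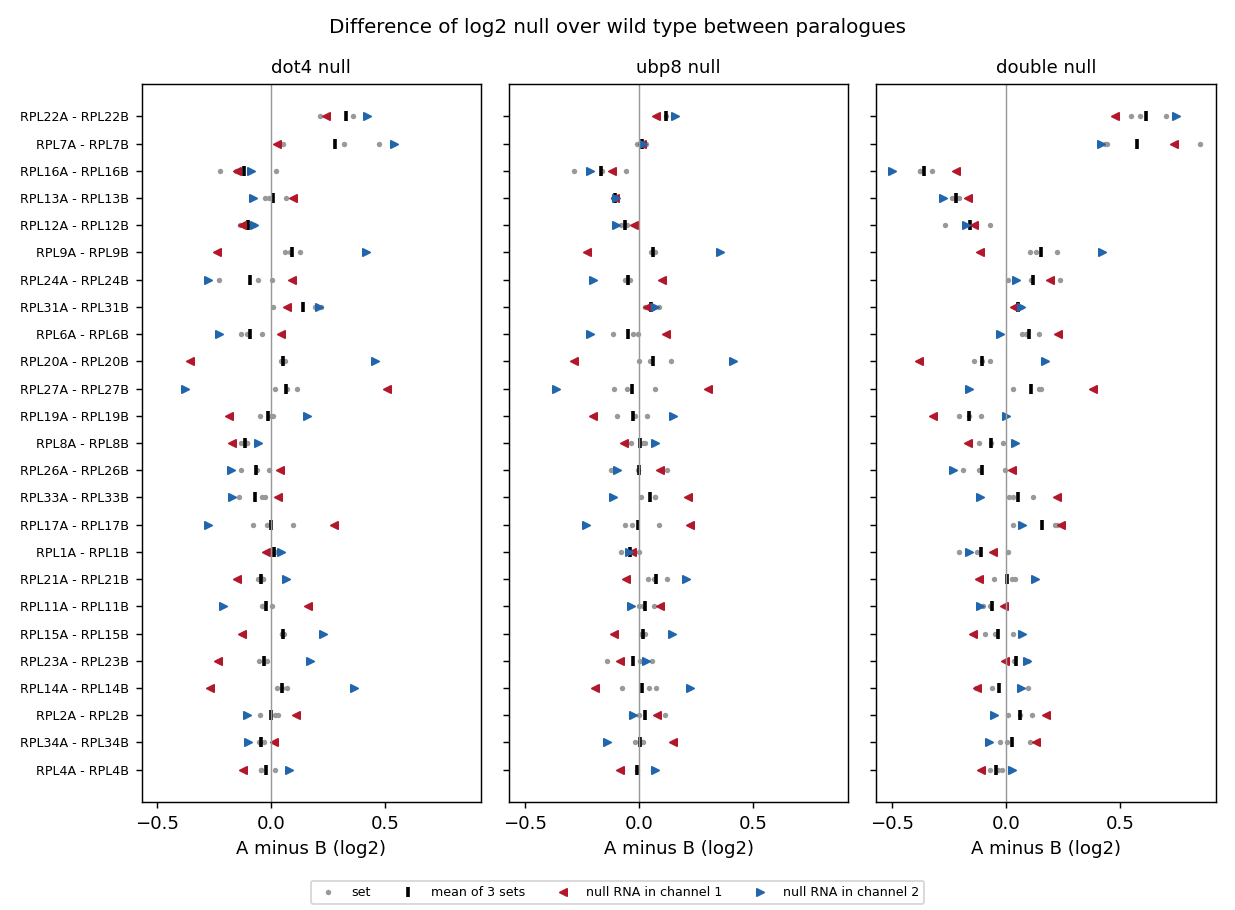
Difference A minus B of the log2 ratio of null over wild type (x axis) for 25 of the 26 paralogue pairs (y axis) in the dot4 null, the ubp8 null and the double null. Grey points are sets, black bars the mean of 3 sets, red triangles the mean of the 3 arrays with the null RNA in channel 1 and blue triangles that with it in channel 2. RPL22 lies to the right in every panel, at 0.33, 0.12 and 0.61, and most other pairs lie near 0 with triangles on opposite sides.

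Leaving out 1 set left 0 of the 26 pairs past the threshold in 6 of 9 cases, namely without dot4 null set 3, ubp8 null set 1 or set 3, or any double null set. With 8 sets the smallest p is 0.00781, and the RPL22 difference itself stayed between 0.31 and 0.39 in these cases. From channel 1 arrays alone 19 pairs passed, and on channel 2 arrays alone 20 did. Most of the 26 pairs had mean differences of opposite sign in the opposite orientations, as RPL20 did at -0.34 and 0.35. These counts therefore do not mean that a pair differed in the same direction in each orientation.

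The rest of the ribosome and its assembly factors were read from lists chosen by function. The other 21 large subunit proteins, RPL35A to RPL43B and the acidic stalk proteins, were all called lower in dot4 null cells (median -0.26). Of the 21, 15 were called lower and 2 higher in double null cells (median -0.25). Of these genes 3 were called lower and 4 higher in ubp8 null cells (median -0.04). Of all ORFs, 32.1% were called lower in dot4 null cells. The shares were 35.2% lower and 35.3% higher in double null cells, and 28.7% and 30% in ubp8 null cells. RPL40A and RPL40B, which encode a ribosomal protein fused to ubiquitin, fell to -0.46 ± 0.05 and -0.47 ± 0.04 in double null cells. The acidic stalk gene RPP2A fell to -0.41 ± 0.05 in double null cells and -0.43 ± 0.05 in dot4 null cells. In double null cells RPL40A read -0.89 on channel 1 arrays and -0.04 on channel 2 arrays. In the same order RPL40B read -0.99 and 0.06, and RPP2A -0.50 and -0.32. The 21 had medians of -0.51 on channel 1 arrays and -0.03 on channel 2 arrays in dot4 null cells. In double null cells these were -0.44 and -0.01.

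The 56 small subunit protein genes had medians close to those of the large subunit, at -0.31 in dot4 null cells, -0.39 in double null cells and -0.07 in ubp8 null cells. Of them 54, 52 and 18 were called lower in the same strains, against 32.1%, 35.2% and 28.7% of all ORFs. Called higher were 1 of the 56 in dot4 null cells, RPS26A at 0.23 (0.57 on channel 1 arrays and -0.11 on channel 2 arrays), none in double null cells and 3 in ubp8 null cells. RPS22B was lowest, at -0.96 ± 0.06 in double null cells and -0.84 ± 0.06 in dot4 null cells. Their orientation medians were also apart, at -0.66 on channel 1 arrays and -0.03 on channel 2 arrays in dot4 null cells.

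Genes for 6 dedicated chaperones and transport factors of large subunit proteins all rose in dot4 null cells, with a median of 0.32, where 29.9% of all ORFs were called higher. They included ACL4, which guards Rpl4 (0.43 ± 0.04), BCP1, a chaperone of Rpl23 (0.37 ± 0.04), and RRB1, the Rpl3 chaperone (0.35 ± 0.03). Their orientation means were 0.42 and 0.44 for ACL4, 0.30 and 0.45 for BCP1, and 0.30 and 0.40 for RRB1, on channel 1 arrays first. In ubp8 null cells 4 of the 6 fell, where 28.7% of all ORFs were called lower, with a median of -0.26, led by the nuclear export factor gene ARX1 (-0.41 ± 0.03) and by SQT1, the Rpl10 chaperone (-0.32 ± 0.03). In double null cells ACL4 rose (0.30 ± 0.04), ARX1 and SQT1 fell (-0.14 ± 0.03 and -0.13 ± 0.03), and the other 3 were not called, where 35.3% of all ORFs were called higher and 35.2% lower.

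Of 9 regulators of ribosomal protein genes, 3 rose and 1 fell in dot4 null cells, 1 rose and 5 fell in ubp8 null cells, and 1 rose and 3 fell in double null cells. Over all ORFs, between 28.7% and 35.3% were called in each direction in each strain. In dot4 null cells RAP1, whose protein binds most of these promoters, rose (0.25 ± 0.04), IFH1, encoding a coactivator, rose (0.20 ± 0.03), and CRF1, encoding a corepressor, fell (-0.31 ± 0.08). The activator gene SFP1 fell in ubp8 null cells (-0.32 ± 0.04), as did IFH1 (-0.15 ± 0.03) and RAP1 (-0.11 ± 0.04). UTP22, whose protein joins Ifh1 in a complex, fell in double null cells (-0.34 ± 0.03) and in ubp8 null cells (-0.26 ± 0.03).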

How the data were processed

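Total RNA of 3 null strains and wild type was compared on 18 arrays with 2 channels. For each array, the authors deposited a table of log2 ratios covering 6205 ORFs. How they corrected, normalized and averaged spots, and with which array design, is not given here by the sources. The log2 scale was read from the values. The values were found to run as channel 2 over channel 1, since UBP10 and UBP8 were then low on all 12 arrays of each deletion. The order in which the titles name the strains would turn every sign.

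A stand-in of 16.61 that occurred 2 times and 9 empty values were treated as missing, none of them in the 60 genes. After centring on the median, ratios were turned to null over wild type and averaged within sets of 2 arrays. The functions lmFit and eBayes of limma 3.58.1 (R 4.3.3) gave a mean per genotype, tested against 0, and 4 contrasts from the 9 set means. Benjamini-Hochberg adjustment ran over 6205 ORFs (threshold 0.05). The wild type is in every ratio, so its own spread is not separated. Orientation differences were fitted likewise on within-set differences, and paralogue differences were tested by exact permutation. Symbols were matched for 5705 ORFs through RefSeq's gene table (assembly R64).

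The members and lists were chosen with earlier results of these data known. The text names the 2 deleted genes, the 5 lowest and highest members per genotype, members not called with the majority, the 10 pairs with the largest mean absolute difference, the 5 largest orientation differences, all single-copy members and up to 3 genes per context list. By name, 1 member is not reported here, though it is part of every count and median over the members. Members named for their role, contrast or count of sets, and further context genes, were chosen after their values were seen.

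The samples' set numbers were checked as pairs: deviations of same-numbered sets correlated from -0.26 to 0.27, and 4 of 9 pairs exceeded 0.1, so the numbers were not used as pairs. On simulated data for the dot4 null over 6195 ORFs, 9, 34, 47 and 50 of 50 ORFs changed by 0.1, 0.2, 0.4 and 0.8 were called, with 6 false calls. The simulated noise was normal and independent between ORFs and sets, with no orientation effect. The false calls therefore give no error rate for the real arrays. Centring, scaling, orientation, the unit of replication, single sets, the discordant array, the threshold and the sign were varied.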

Additional observations from a re-analysis of the deposited data

Results flagged for a closer look

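Among groups of 6 arrays, 3 of 180 tests of a member in a genotype found an array far from the other 5. That is fewer than the 1 in 20 or so that chance alone gives for 6 like arrays. Each group mixed both orientations, which did not overlap for most members, so that rate need not hold here. RPL18B in the ubp8 null had its highest array at -0.04 (-0.038), set 3 in channel 2. RPL10 in the double null had its lowest array at -0.34 (-0.341), set 3 in channel 1. RPL22B in the double null had its highest array at -0.96 (-0.964), set 1 in channel 1.

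Effects of the deletions differed between genotypes by the contrasts of the limma fit. The double null minus the dot4 null was called for 14 members, of which 13 were lower, a share of 21.7% that is below the 29.2% of all ORFs called lower. The double null minus the ubp8 null was called lower for 57 members, against 21% of all ORFs, and the dot4 null minus the ubp8 null for 48, against 30.2%. The departure of double null cells from the summed single nulls was called lower for 3 of 60 members, against 8.41% of all ORFs.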

How the results depend on the processing

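The counts of 58 members called lower in each strain without DOT4 held within 1.5 times under every alternative except the channel 2 arrays alone and the turned sign. With the null RNA in channel 2 only, 20, 1 and 38 members were called lower and 11, 24 and 2 higher in the 3 strains (dot4, ubp8, double), with medians of -0.064, 0.12 and -0.18. With channel 1 only the medians were -0.65, -0.31 and -0.64, and 52 members were called lower in ubp8 null cells. With the sign turned round, 0 were called lower and 58, 21 and 58 higher by limma, with medians of 0.35, 0.081 and 0.43. The ubp8 null count of 21 became 1 without centring, 12 with 18 arrays and the set as a random block (within-set correlation -0.43), 8 without the array of discordant strain number and 9 at an adjusted p under 0.01. Scaling the arrays to a common spread gave 2 members called higher in ubp8 null cells. The dot4 null median was -0.26 without centring and -0.32 with scaling.

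For the double null minus the dot4 null, counts lower were 7 without centring, 6 with scaling and 7 with channel 1 only, and counts higher were 0 without centring, 4 with channel 1 only and 0 with channel 2 only. Without centring, 36 members were lower in the double null minus the ubp8 null. The count was 7 for the dot4 null minus the ubp8 null and 0 for the double null minus the sum. For the sum contrast, scaling gave 1 higher, channel 1 only gave 0 lower and 39 higher, and channel 2 only gave 26 lower. The dot4 null minus the ubp8 null with channel 2 only had 30 lower and 2 higher. Paralogue pairs that differed numbered 19 with channel 1 only and 20 with channel 2 only, though most pairs had opposite signs in the opposite orientations.

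Leaving out 1 set at a time gave 8 to 27 members lower in ubp8 null cells, 9 to 22 lower and 0 to 3 higher in the double null minus the dot4 null, 1 to 4 lower and 0 to 7 higher in the double null minus the sum, and 0 to 6 pairs. With the set number as a replicate block, 59, 20 and 58 members were called lower in the 3 strains (dot4, ubp8, double), and no count moved by over 1.5 times.

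Values called in the full data or with one orientation had the opposite sign of the full data with channel 2 only for RPL24B (0.58), RPL24A (0.30), RPL25 (0.49), RPL28 (0.10), RPL30 (0.048) and RPL32 (0.21) in dot4 null cells. The same held for RPL3 (0.068), RPL13A (0.074), RPL25 (0.55), RPL5 (0.18), RPL28 (0.26) and RPL32 (0.33) in ubp8 null cells, and for RPL32 (0.13) and RPL25 (0.17) in double null cells. Of these, RPL24B in dot4 null cells and RPL25, RPL28 and RPL32 in ubp8 null cells were not called in the full data, and were called higher with channel 2 only. In the ubp8 null RPL30 was -0.44 with channel 1 only and RPL25 was 0.085 with scaling. With channel 1 only, A minus B was -0.19 for RPL9, 0.13 for RPL24, 0.13 for RPL6 and -0.34 for RPL20. Apart from the orientation of the null RNA, which the alternative itself changes, the cause was not tested. Signal over background was not used here, so dim ORFs could not be set apart.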
